A study of Mus musculus with 16 samples.

Results

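The genes described are 10 markers of injury and repair in the kidney tubule, Havcr1, Lcn2, Spp1, Clu, Vcam1, Cdkn1a, Sox9, Krt8, Krt18 and Krt20. They were chosen by symbol, each symbol named 1 entry of the gene count table, and they are 10 of its 57186 genes. All 10 had at least 100 counts over the libraries, the minimum for testing, which 25408 genes met. Kidney RNA was sequenced from 16 male mice on a C57BL/6J background, aged 16 weeks by the study's methods, with 4 libraries in each of 4 groups. ND_C is Elmo1 H/H without B12, ND_B12 is Elmo1 H/H with B12, D_C is Elmo1 H/H Ins2 Akita/+ without B12, and D_B12 is Elmo1 H/H Ins2 Akita/+ with B12. Elmo1 H/H raises Elmo1 expression and is shared by every group, so no group had wild-type Elmo1. Ins2 Akita is a dominant mutation that misfolds proinsulin in the pancreatic beta cell and lowers insulin, so the diabetes is one of insulin deficiency. B12 was given in drinking water at 10 mg/kg per day from 8 weeks of age, and the labels and the study's methods differ on its duration. The labels give 16 weeks of treatment and the methods 8, so the age of the treated mice depends on which is right. RNA was from whole kidney, in which fewer cells of a type and less RNA per cell cannot be told apart.

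An injured tubule cell loses transporters and polarity and takes on a set of genes that is silent or low in the mature nephron. Some of these encode receptors or secreted proteins that are measured in urine as signs of injury, such as KIM-1, the product of Havcr1, and NGAL, the product of Lcn2. Others belong to a repair programme, with SOX9 as its transcription factor, and to a state in which repair fails, the cell cycle is arrested by p21, the product of Cdkn1a, and VCAM1 is displayed on the tubule cell. Simple epithelial keratins, KRT8 with its partner KRT18, and KRT20, build the intermediate filaments of stressed tubules, and also those of healthy collecting duct and of the urothelium that lines the renal pelvis.

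Library totals ran from 65271308 to 91771136 counts. The 10 proximal tubule markers examined, Slc34a1, Lrp2 and Cubn among them, had counts in every library. Their summed normalized count was 1205440 to 1286140 for ND_C, 1264560 to 1358750 for ND_B12, 1069830 to 1288230 for D_C and 1121160 to 1176330 for D_B12. D_B12 lay wholly below both non-diabetic groups. D_C did not, through D_C 3 at 1288230. D_C 1, D_C 2 and D_C 4, at 1102870, 1069830 and 1076840, lay below every other library, those of D_B12 included. A comparison of the libraries with the group means tabulated by the study gave a reason for care with the labels. For 182 genes, the means tabulated for each group were matched against all 1820 sets of 4 libraries, and the best sets differed from the labelled groups. The set that matched the tabulated D_C was the 4 libraries labelled D_B12, and the set that matched the tabulated D_B12 was D_C 2, D_C 3, D_C 4 and ND_B12 4. Only 5 libraries fell in the group of their label, and 2, D_C 1 and ND_B12 4, fell on the other side of the diabetes comparison. Were the tabulated groups the true ones, D_C 2, D_C 3 and D_C 4 would be treated and the D_B12 libraries untreated, and differences between D_B12 and D_C would turn in sign. Leaving out libraries does not address this. Over all tested genes D_C 1 had its highest r with ND_C 4 (0.9826), and its highest within its own group with D_C 3 (0.9798). The highest r of ND_B12 4 was with D_C 3 (0.9843), and within its own group with ND_B12 2 (0.9827). Which assignment is right was not tested. All groups here are those of the labels, and a name such as D_C means the libraries labelled so. Marker calls that changed without D_C 1 and ND_B12 4 are given, with part of the fold changes and list counts that moved. A value not given without these libraries may also have moved. The library names also hold dates, whose meaning is not stated. No date was shared by D_C and D_B12, by ND_C and D_C, or by ND_B12 and D_B12. Both simple comparisons of diabetes were thus separated by date, as was B12 in diabetic kidneys. Only ND_C with ND_B12, and ND_B12 with D_C, had a date in common.

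Cdkn1a had the largest fitted difference between labelled groups that reached an unadjusted p below 0.05, and it is transcribed from more than 1 start. The windows from 250 bases before to 50 after its RefSeq starts are shown because counts of its transcripts separate those starts. Both were matched without mismatch to GRCm39. The upstream window lies at chr17:29309703-29310002 on the plus strand, around the start of Cdkn1a-202, and the capitals mark a match to the p53 response element, the binding sequence of the p53 transcription factor, with 1 mismatch allowed and no gap between its repeats. The downstream window lies at chr17:29312493-29312792 on the plus strand, near the start of Cdkn1a-201, and holds no such match.
Cdkn1a, upstream start: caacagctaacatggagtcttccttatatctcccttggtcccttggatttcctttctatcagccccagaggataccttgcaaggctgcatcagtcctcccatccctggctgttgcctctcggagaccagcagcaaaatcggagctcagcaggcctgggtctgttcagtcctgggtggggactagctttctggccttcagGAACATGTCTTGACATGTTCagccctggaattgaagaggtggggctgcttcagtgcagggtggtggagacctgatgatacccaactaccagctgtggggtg
Cdkn1a, downstream start: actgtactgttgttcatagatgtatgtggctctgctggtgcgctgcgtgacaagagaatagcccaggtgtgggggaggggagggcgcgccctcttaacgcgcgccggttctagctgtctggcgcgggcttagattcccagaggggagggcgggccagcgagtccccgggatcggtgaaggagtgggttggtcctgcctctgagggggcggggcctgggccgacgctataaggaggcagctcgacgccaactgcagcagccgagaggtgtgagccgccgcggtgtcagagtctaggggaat
The match begins 51 bases before the upstream start and ends 2822 bases before the downstream one. The consensus of the element is its own reverse complement, so a search of 1 strand covers both. Of 32851 RefSeq windows of this length, 18 held a match of this kind, 0.0548%, and of the 7 markers with a window only Cdkn1a had it. A match describes letters in a window and not a bound site. Windows were listed for Havcr1, Lcn2, Spp1, Krt8, Krt18, Krt20 and Cdkn1a.

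Per kilobase of transcript, the markers spanned a wide range of levels in these kidneys. Spp1 was the most abundant, with a normalized count per kilobase of 15350 ± 3439 (SD, n = 16), followed by Clu at 7472 ± 1232, Krt8 at 2614 ± 309 and Krt18 at 755.9 ± 315.0. Cdkn1a lay at 504.1 ± 323.6, Vcam1 at 228.1 ± 44.4 and Lcn2 at 205.2 ± 148.6. The lowest were Havcr1 at 72.2 ± 47.9, Sox9 at 26.1 ± 10.4 and Krt20 at 18.3 ± 14.7. Neighbours in this order whose library ranges overlapped were Spp1 and Clu, Krt18 and Cdkn1a, Cdkn1a and Vcam1, Vcam1 and Lcn2, Lcn2 and Havcr1, Havcr1 and Sox9, and Sox9 and Krt20. Clu and Krt8 did not overlap, with a lowest Clu level of 5540 and a highest Krt8 level of 3216, nor did Krt8 and Krt18. The secreted proteins osteopontin and clusterin and the filament protein keratin 8 were the markers read from the most RNA, and Havcr1, Sox9 and Krt20 those read from the least.

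The markers also differed in how much they varied from kidney to kidney. The highest library exceeded the lowest 1.46-fold for Krt8, 1.76-fold for Clu, 2.12-fold for Spp1 and 2.15-fold for Vcam1. The same ratio was 3.67 for Sox9, 4.18 for Krt18, 8.78 for Lcn2, 9.04 for Cdkn1a, 9.46 for Havcr1 and 37.7 for Krt20. The ratio of the highest to the lowest group mean was much smaller, from 1.05 for Clu to 3.52 for Lcn2.

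**Figure D1:**
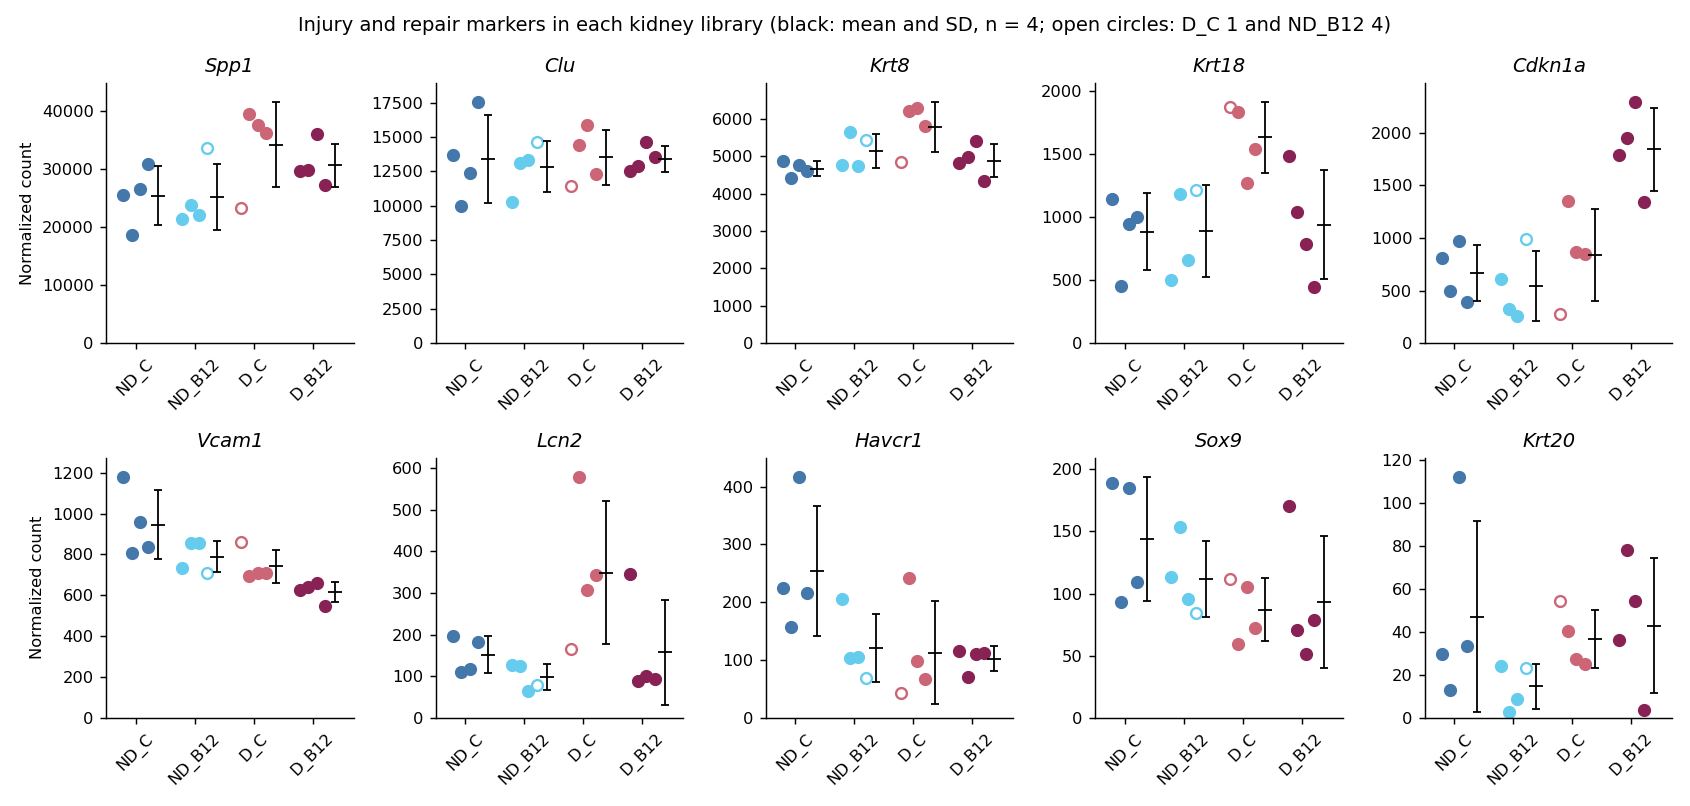
Normalized counts (counts divided by the library's size factor) of the 10 markers in each library, by labelled group, with the mean and SD of 4 libraries in black and D_C 1 and ND_B12 4 as open circles. Cdkn1a runs from 1337 to 2294 in the D_B12 libraries, with only D_C 2 of the others at that level (1353), Vcam1 steps down from ND_C to D_B12, and Clu stays between 9942 and 17546 in all groups.

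In the tests across all 25408 genes (edgeR's quasi-likelihood test, Benjamini-Hochberg adjustment), 1 of 10 markers passed an adjusted p of 0.05 in 1 comparison, the average effect of diabetes over both treatments, where 3.02% of all genes passed. None passed in diabetes in untreated kidneys, where 1.66% of all genes did, nor in diabetes in B12-treated kidneys, where 0.823% did. None passed for B12 in diabetic kidneys, B12 in non-diabetic kidneys, the average effect of B12 or the interaction, and in each of these 0% of all genes passed. At an unadjusted p below 0.05 the markers numbered 6 of 10 for D_C against ND_C, where 18.6% of all genes were below it, and 2 of 10 for D_B12 against ND_B12, where 17% were. They numbered 5 of 10 for D_B12 against D_C, where 13.6% were below it, and 3 of 10 for ND_B12 against ND_C, where 7.62% were. For the average effect of diabetes the count was 5 of 10 against 19.4%, for the average effect of B12 2 of 10 against 5.2%, and for the interaction, the effect of diabetes with B12 minus that without, 2 of 10 against 16.1%. DESeq2 called 2 markers in D_C against ND_C, where it called 6.31% of all genes, 1 in D_B12 against ND_B12, where it called 4.51%, and 3 for the average effect of diabetes, where it called 7.21%. It called no marker for D_B12 against D_C, with 2.68% of all genes, for the interaction, with 3.63%, or for ND_B12 against ND_C and the average effect of B12, with 0.0236% each. Without D_C 1 and ND_B12 4, edgeR called 3 markers in D_C against ND_C, with 8.57% of all genes, 1 in D_B12 against ND_B12, with 2.8%, and 3 for the average effect of diabetes, with 10.2%. In that fit no marker was called for D_B12 against D_C, with 0.87% of all genes, or for the interaction, with 0.35%. Comparisons that share a group are not independent of each other, and the values below are each comparison's own.

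**Figure D2:**
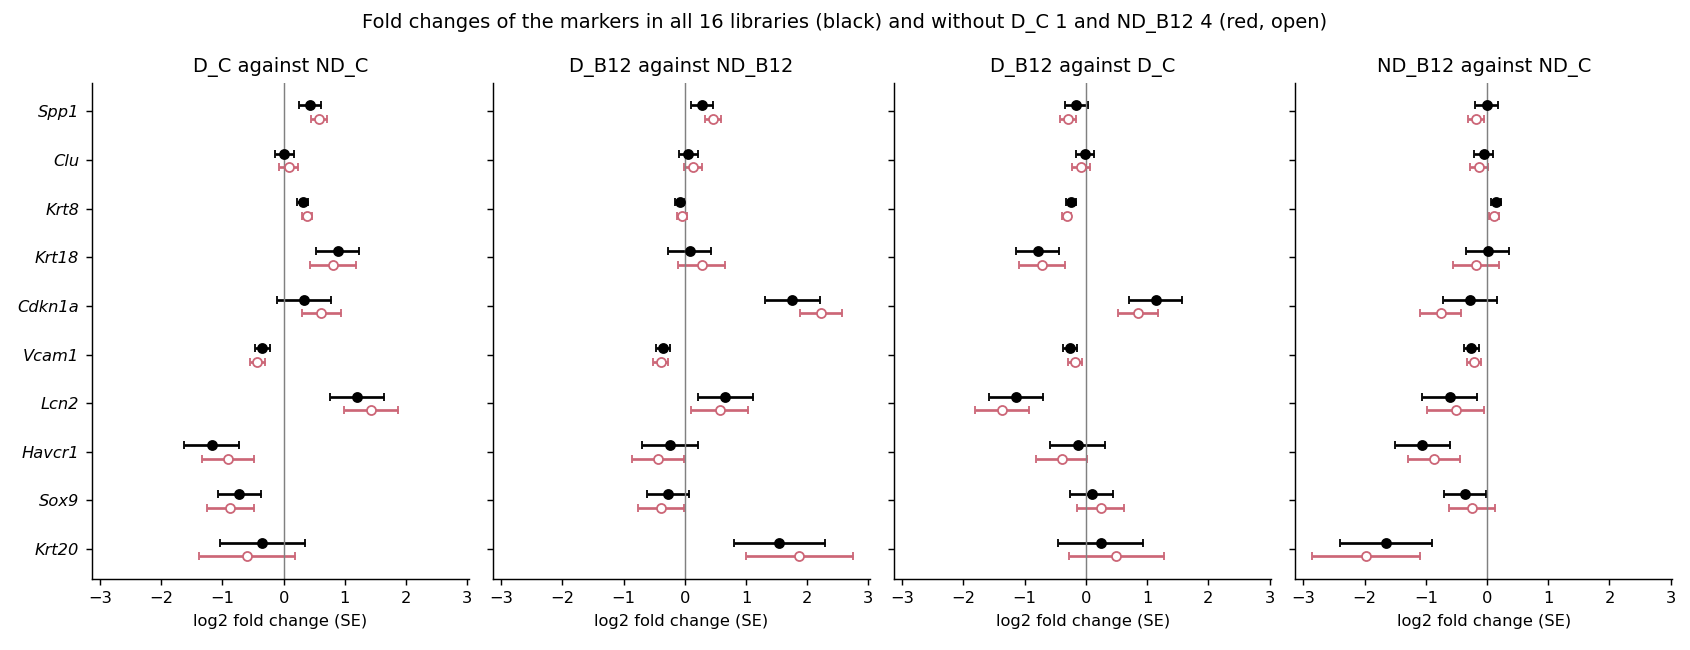
log2 fold changes with their SE for the 10 markers in 4 comparisons, from all 16 libraries in black and without D_C 1 and ND_B12 4 in red. Cdkn1a stands at 1.76 for D_B12 against ND_B12 and 2.23 without those libraries, and Lcn2 and Krt18 lie to the right in D_C against ND_C and to the left in D_B12 against D_C.

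Havcr1 encodes a phosphatidylserine receptor that lets injured proximal tubule cells take up dying neighbours, and it is usually near silent in the healthy tubule. Its normalized counts were 225.1, 157.1, 416.8 and 216.9 for ND_C, 206.3, 104.2, 105.7 and 69.6 for ND_B12, 44.0, 241.5, 98.6 and 67.0 for D_C, and 116.4, 70.7, 111.3 and 111.7 for D_B12. The highest library was thus non-diabetic and untreated, and D_C overlapped ND_C through D_C 2. Havcr1 was lower in D_C than in ND_C by a log2 fold change of -1.17 (SE 0.45), with an adjusted p of 0.172 in edgeR. It was lower in ND_B12 than in ND_C by -1.06 (SE 0.45, adjusted p = 0.637, edgeR), and the average effect of diabetes was -0.71 (SE 0.32, adjusted p = 0.236). None of these passed, and in this edgeR fit, with group means alone and no covariate, no comparison placed Havcr1 higher in kidneys labelled diabetic. With the label date as a covariate the average effect was -0.27, and D_B12 lay above ND_B12 by 0.35 (adjusted p = 0.918). Counts were assigned mainly to Havcr1-203, 67.9% of the gene, and to Havcr1-202, 31.5%, which starts further upstream, and the share of Havcr1-203 ran from 2.86% to 100% between libraries of ND_B12.

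Lcn2 encodes lipocalin 2, an iron-siderophore carrier that injured thick limb and collecting duct cells secrete. Its counts were 197.4, 110.3, 116.7 and 182.3 for ND_C and 126.6, 125.1, 65.9 and 78.3 for ND_B12. They were 166.0, 578.8, 306.6 and 342.8 for D_C and 345.1, 89.8, 101.1 and 93.5 for D_B12. D_C 2, D_C 3 and D_C 4 exceeded every non-diabetic library, D_C 1 did not, and among the D_B12 libraries only D_B12 1 was that high. The log2 fold change was 1.20 (SE 0.44) in D_C against ND_C with an adjusted p of 0.154 in edgeR, -1.14 (SE 0.44) in D_B12 against D_C with an adjusted p of 0.259, and 0.93 (SE 0.31) for the average effect of diabetes with an adjusted p of 0.111. For the average effect of B12 it was -0.88 (SE 0.31, adjusted p = 0.841, edgeR). With DESeq2 the first of these had an adjusted p of 0.0485 and the average effect of diabetes one of 0.0258. With the label date as a covariate D_C against ND_C became 1.97 (adjusted p = 0.196), the average effect of diabetes 1.97 (adjusted p = 0.229), D_B12 against D_C -0.34 (adjusted p = 0.842) and the average effect of B12 -0.34 (adjusted p = 0.881), all in edgeR. Without D_B12 1 the log2 fold change in D_B12 against D_C was -1.86, and its adjusted p was 0.0600 in edgeR. Of the 5 thick limb and collecting duct markers, 2 rose in D_C against ND_C, the water channels Aqp2 and Aqp3. There 1.66% of all genes passed, and Aqp3 rose by 0.60 on the log2 scale (SE 0.13, adjusted p = 0.0397, edgeR). In D_B12 against D_C all 5 had values below 0, with a median of -0.58, and none passed. Without D_C 1 and ND_B12 4, 3 of 5 rose in D_C against ND_C, where 8.57% of all genes were called. In that fit Aqp3 and Slc12a1 fell in D_B12 against D_C, where 0.87% were called. The interaction of Aqp3 also passed, where 0.35% did. Umod moved the other way in that fit. It fell in D_B12 against ND_B12 by 0.65 on the log2 scale (SE 0.11, adjusted p = 0.00871, edgeR), where 2.8% were called. In the average effect of diabetes, where 10.2% were, Aqp2 and Aqp3 rose and Umod fell by 0.43 (SE 0.08, adjusted p = 0.00431, edgeR). The part of these segments in the level of Lcn2 was not tested.

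Spp1 encodes osteopontin, a phosphoprotein of urine that binds integrins and CD44. Its counts were 25597, 18706, 26571 and 30887 for ND_C, 21339, 23823, 22029 and 33626 for ND_B12, 23344, 39571, 37694 and 36327 for D_C, and 29657, 29847, 35999 and 27330 for D_B12. D_C 2, D_C 3 and D_C 4 were the highest of all 16, D_C 1 lay among the non-diabetic libraries, and ND_B12 4 stood above its own group. The log2 fold change was 0.43 (SE 0.18, adjusted p = 0.219, edgeR) in D_C against ND_C and 0.35 (SE 0.13, adjusted p = 0.139, edgeR) for the average effect of diabetes. Without D_C 1 and ND_B12 4, Spp1 rose in D_C against ND_C by 0.57 (SE 0.13, adjusted p = 0.018) and in the average effect by 0.51 (SE 0.09, adjusted p = 0.00365). With the label date as a covariate the D_C against ND_C value was 0.20 and the average effect 0.03.

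The Spp1 counts were split between Spp1-201, at 64.96% of the gene, and Spp1-205, at 33.6%, whose annotated start, 104582987 on chromosome 5, lies within the gene downstream of the start of Spp1-201 at 104582165. Spp1-205 held 48.6%, 17.6%, 19.8% and 47.5% of the gene's counts in ND_C, 49.2%, 19.9%, 32.8% and 30.3% in ND_B12, 27.3%, 19.3%, 32.9% and 22.4% in D_C, and 49.9%, 47.6%, 46.1% and 24.4% in D_B12. The share lay either between 17.6% and 32.9% or between 46.1% and 49.9%, within groups as well as between them. No D_C library had a share above 32.9%, and 3 of 4 D_B12 libraries had one of at least 46.1%. Spp1-201 alone had a mean of 25231 ± 6209 (SD, n = 4) in D_C and 17033 ± 2692 (n = 4) in D_B12, which differ by -0.62 on the log2 scale (SE 0.25, adjusted p = 0.494, edgeR), and against ND_C Spp1-201 for D_C was higher by 0.68 (SE 0.25, adjusted p = 0.402). Such splits are estimates made from reads that the transcripts share.

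**Figure D3:**
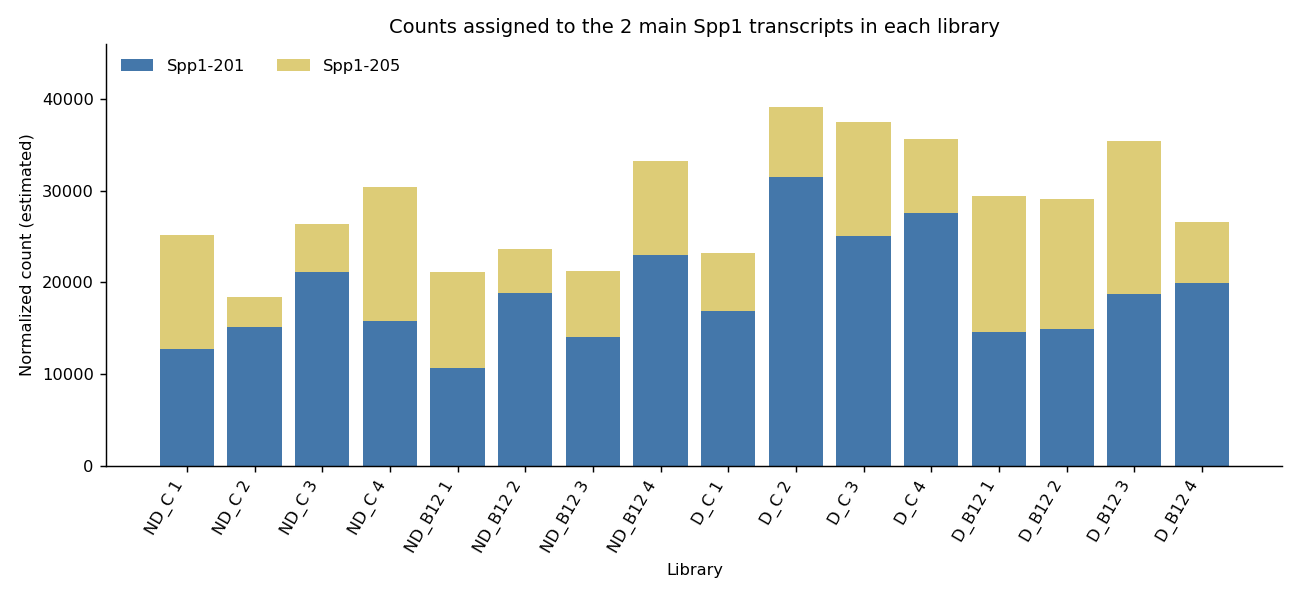
Normalized counts assigned to Spp1-201 and Spp1-205 in each of the 16 libraries, stacked. The share of Spp1-205 is 19.3% to 32.9% in the D_C libraries and 46.1% to 49.9% in D_B12 1, D_B12 2 and D_B12 3.

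Clu encodes clusterin, a secreted chaperone that binds misfolded proteins and is abundant after tubule damage. Its group means were 13386 ± 3181 for ND_C, 12834 ± 1849 for ND_B12, 13503 ± 2015 for D_C and 13398 ± 936 for D_B12 (SD, n = 4 each). The lowest library was ND_C 2 at 9942 and the highest ND_C 4 at 17546, so that ND_C spanned all other groups. The smallest unadjusted p of Clu over the 7 comparisons was 0.70. The average effect of diabetes was a log2 fold change of 0.04 with a 95% interval from -0.19 to 0.26 (edgeR), or from 0.877-fold to 1.20-fold. Without D_C 1 and ND_B12 4 it was 0.11 (SE 0.11, adjusted p = 0.598), and with the label date as a covariate -0.29 (adjusted p = 0.655). Clu-201 held 98.8% of its counts.

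Vcam1 encodes an adhesion molecule that binds integrin alpha 4 on leukocytes, and is found on endothelium and on tubule cells that fail to repair. It was the only marker called in all 16 libraries. Its counts were 1180, 806.2, 958.2 and 836.9 for ND_C, 735.9, 854.6, 856.8 and 711.7 for ND_B12, 863.1, 693.5, 707.4 and 707.9 for D_C, and 624.9, 643.0, 658.4 and 547.8 for D_B12. Every D_B12 library lay below every library of the other groups, and D_C 1 was the only diabetic library above the lowest ND_C library. Vcam1 fell by 0.35 on the log2 scale in the average effect of diabetes (SE 0.08, adjusted p = 0.0358, edgeR), a change of -21.6%. The D_C against ND_C value was -0.35 (SE 0.12, adjusted p = 0.126) and the D_B12 against ND_B12 value -0.35 (SE 0.12, adjusted p = 0.14), in edgeR. For B12 the values were -0.26 (SE 0.12, adjusted p = 0.343) in diabetic and -0.25 (SE 0.12, adjusted p = 0.646) in non-diabetic kidneys. Groups did not overlap for Vcam1 in D_B12 against ND_B12 or in D_B12 against D_C, where 11.7% and 6.58% of all genes had such a separation, and no marker had groups that did not overlap in ND_B12 against ND_C, where 4.81% of all genes did.

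The Vcam1 call was lost under 14 of 23 alternatives, among them leaving out any 1 of 12 libraries (all but ND_C 2, ND_C 4, ND_B12 4 and D_C 1), with adjusted p values from 0.0127 to 0.0776 over the 16 fits that leave out 1 library. With the label date as a covariate the average effect of diabetes was -0.12 (adjusted p = 0.843, edgeR), the D_C against ND_C value -0.19 and the D_B12 against ND_B12 value -0.05. Without D_C 1 and ND_B12 4 it was -0.41 (SE 0.08, adjusted p = 0.00803), and the value in D_C against ND_C then passed as well, at -0.43 (adjusted p = 0.0416). Of the macrophage markers 1 of 5 was called with it. The summed normalized count of the 5 examined, Adgre1, Cd68, Csf1r, C1qa and C1qb, was 5531 to 6379 for ND_C, 3828 to 6074 for ND_B12, 4295 to 5447 for D_C and 3912 to 4156 for D_B12, none of them was at 0 in any library, and 1 of 5, the complement gene C1qa, fell in the average effect of diabetes by 0.47 on the log2 scale (SE 0.12, adjusted p = 0.0382, edgeR). With D_C 1 and ND_B12 4 left out, 4 of 5 fell in this effect, C1qa, C1qb, Csf1r and Cd68, where 10.2% of all genes were called. The genes most like Vcam1 over the 16 libraries were the leukocyte integrin Itgb2 (r = 0.92), the lysosomal gene Laptm5 (r = 0.91) and the immunoglobulin segment Ighv1-19 (r = 0.90), a description over libraries that share their groups. Of 5 endothelial markers 1, Egfl7, rose in the average effect of diabetes, by 0.25 (SE 0.06, adjusted p = 0.0307, edgeR), and the other 4 did not pass. In D_C against ND_C all 5 had values above 0, with a median log2 fold change of 0.38, and 1 passed, where 1.66% of all genes did. The median was 0.18 in the average effect, -0.02 in D_B12 against ND_B12 and -0.21 in D_B12 against D_C. In that last comparison all 5 had values below 0 and none passed. For the interaction all 5 were below 0, with a median of -0.39, and none passed. With D_C 1 and ND_B12 4 left out, 3 of 5 rose in the average effect, Cdh5, Egfl7 and Pecam1. In that fit 4 of 5 rose in D_C against ND_C, these and Kdr, where 8.57% of all genes were called. The part of any of these cells in the Vcam1 level was not tested.

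**Figure D4:**
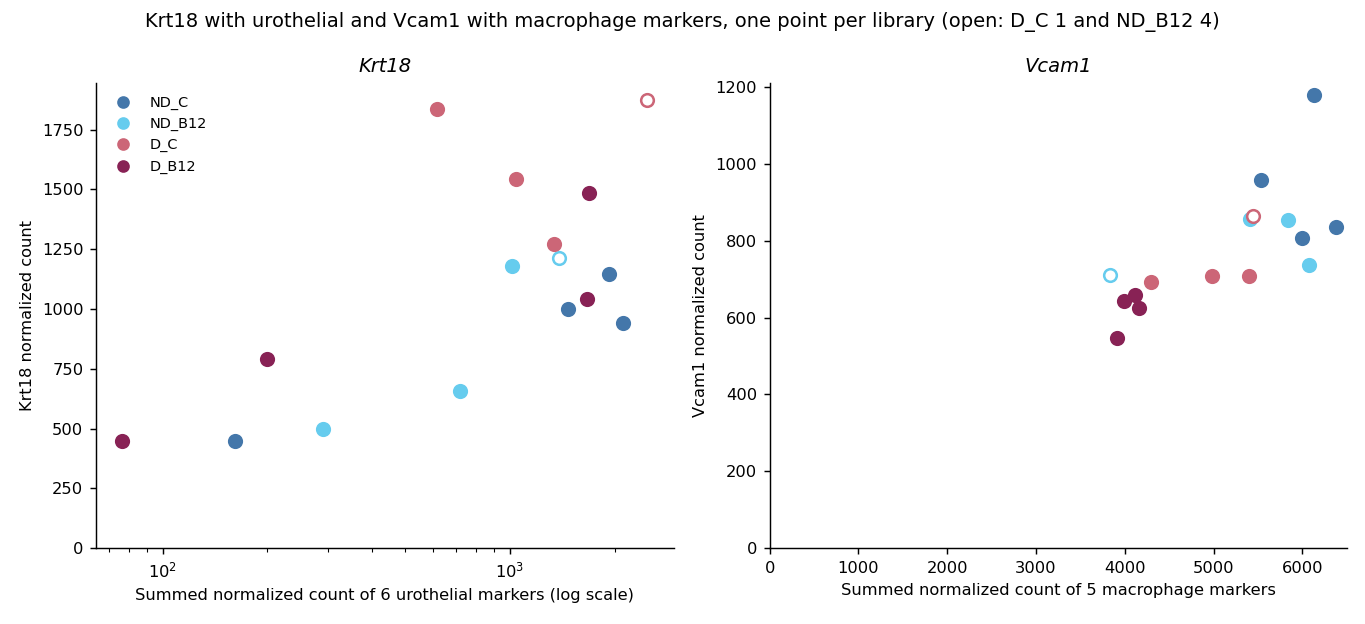
Normalized count of Krt18 against the summed count of 6 urothelial markers, on a log axis, and of Vcam1 against the summed count of 5 macrophage markers, with 1 point per library coloured by labelled group. Libraries with a low urothelial sum have Krt18 counts of 448.2 to 788.9, and the D_B12 libraries have macrophage sums of 3912 to 4156 and Vcam1 counts of 547.8 to 658.4.

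Cdkn1a encodes p21, which binds cyclin-dependent kinases and halts the cell cycle, and it is the classical target of p53. Its counts were 805.5, 497.0, 969.6 and 394.4 for ND_C, 605.9, 323.6, 253.7 and 987.3 for ND_B12, 281.2, 1353, 864.7 and 850.5 for D_C, and 1791, 1946, 2294 and 1337 for D_B12. The 4 D_B12 libraries lay above all ND_B12 libraries and above 3 of 4 D_C libraries. In D_B12 against ND_B12, 11.7% of all genes had groups that did not overlap, and Vcam1 was the only other such marker. D_C 1 was the second lowest of all 16, and ND_B12 4 the highest of the 8 non-diabetic libraries. The log2 fold change in D_B12 against ND_B12 was 1.76 (SE 0.45, adjusted p = 0.0703, edgeR), a 3.38-fold difference that did not pass, with a 95% interval from 1.75-fold to 6.51-fold. With DESeq2 its adjusted p was 0.014, and that of the average effect of diabetes 0.0359. In D_B12 against D_C it was 1.14 (SE 0.44, adjusted p = 0.259), for the average effect of diabetes 1.04 (SE 0.31, adjusted p = 0.0788), and for the interaction 1.43 (SE 0.62, adjusted p = 0.267), in edgeR. Without D_C 1 and ND_B12 4, Cdkn1a rose in D_B12 against ND_B12 by 2.23 (SE 0.35, adjusted p = 0.00547) and in the average effect of diabetes by 1.42 (SE 0.23, adjusted p = 0.00212). In the same fit D_B12 against D_C had a value of 0.86 (adjusted p = 0.199) and the interaction one of 1.61 (adjusted p = 0.123). ND_B12 against ND_C moved from -0.28 to -0.75 (adjusted p = 0.942, edgeR), and D_C against ND_C from 0.33 to 0.62 (adjusted p = 0.259, edgeR).

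Of the Cdkn1a counts, 93.8% were assigned to Cdkn1a-201, from the downstream start shown above, and 0.867% to Cdkn1a-202, from the upstream start beside the p53 element. Cdkn1a-201 had a mean of 1772 ± 405 for D_B12 and 508.3 ± 311.8 for ND_B12 (SD, n = 4), a log2 difference of 1.74 (SE 0.50, adjusted p = 0.223, edgeR). The annotation places Dino, a noncoding RNA on the opposite strand, across the gene's start. Dino had 181 counts in all 16 libraries together. The study's methods took strand from intron motifs, and whether the library kit marked strand is not stated.

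The 20 other p53 targets and partners examined, a list made with earlier results of these data known, had more members called than any other list. This holds in number only, since the lists held 4 to 28 genes. As a share, the 2 of 5 thick limb and collecting duct markers called in D_C against ND_C were more. In the average effect of diabetes 6 of 20 rose and none fell, where 3.02% of all genes passed in either direction, and the median log2 fold change was 0.30 against 0.01 over all tested genes. Eda2r, a receptor of the TNF receptor family, rose by 1.13 (SE 0.27, adjusted p = 0.0357), and Gdf15, a secreted stress cytokine, by 1.01 (SE 0.21, adjusted p = 0.0234). Phlda3, an inhibitor of AKT, rose by 0.72 (SE 0.14, adjusted p = 0.019), and the kinase gene Plk2 by 0.55 (SE 0.12, adjusted p = 0.0234), all in edgeR. Of 23 alternatives, the call was lost under 16 for Eda2r, 7 for Plk2, 5 for Gdf15 and 1 for Phlda3. Trp53 itself had a value of -0.04 (SE 0.06, adjusted p = 0.783) and Sesn2 one of -0.19 (SE 0.14, adjusted p = 0.485). In D_B12 against ND_B12 1 of 20 passed, and in D_C against ND_C none did. When D_C 1 and ND_B12 4 were left out, 11 of 20 rose in the average effect, where 10.2% of all genes were called, with a median of 0.52. In that fit 8 of 20 rose in D_B12 against ND_B12, where 2.8% were called, and 7 of 20 in D_C against ND_C, where 8.57% were. Of the 16 list genes with a RefSeq window, none held the p53 element in the 300 bases searched.

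**Figure D5:**
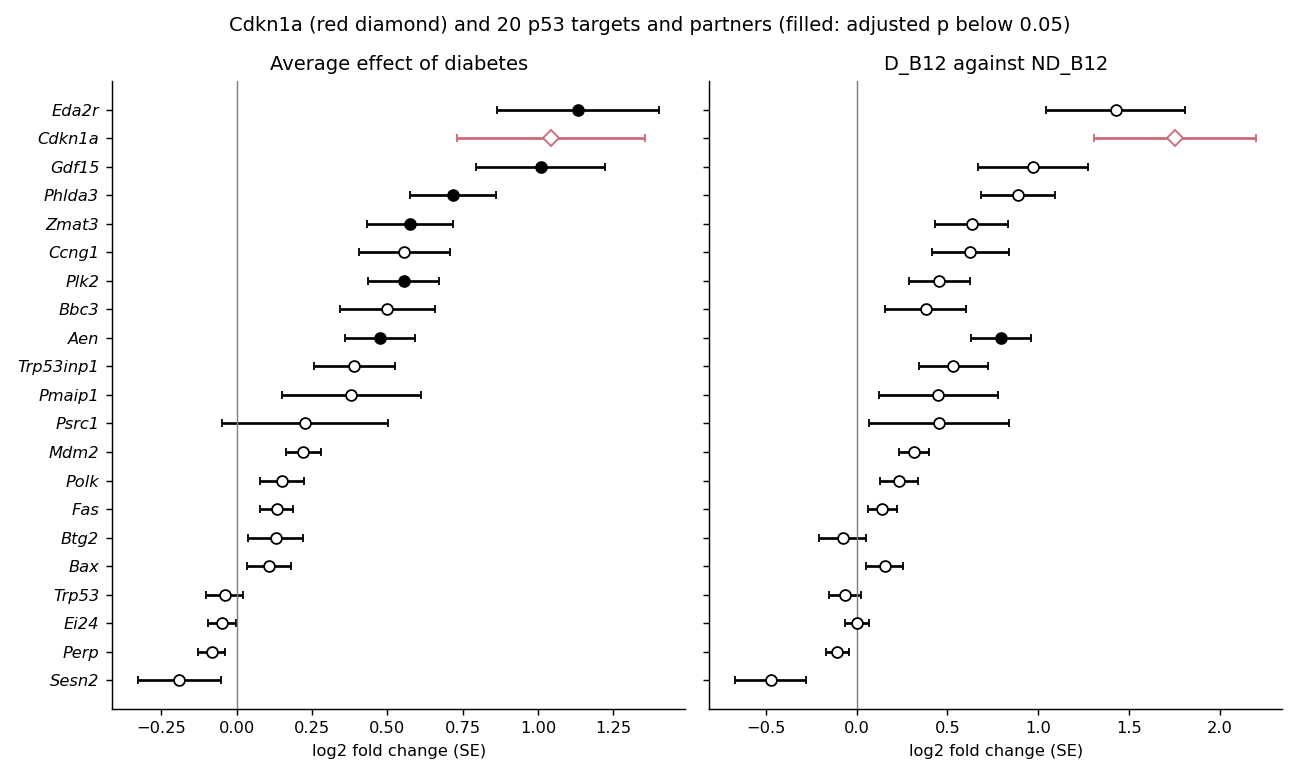
log2 fold changes with SE of Cdkn1a and 20 p53 targets and partners in the average effect of diabetes (left) and in D_B12 against ND_B12 (right), filled where the adjusted p was below 0.05. Of the list, 16 of 20 lie above 0 in each panel, and Cdkn1a is at 1.04 and 1.76.

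Among other genes of the cell cycle, 15 of 16 CDK inhibitors, cyclins and CDKs were tested, Cdkn2a being under the minimum. None passed in any comparison of all 16 libraries, and 3 of 15 had an unadjusted p below 0.05 in the average effect of diabetes, where 19.4% of all genes did. When D_C 1 and ND_B12 4 were left out, 3 of 15 rose in that effect, Cdkn1c, Cdkn2b and Ccna2, where 10.2% of all genes were called, 2 rose in D_C against ND_C, Cdkn1c and Cdkn2b, and 1 in D_B12 against ND_B12, Ccna2. The smallest p belonged to Cdkn2b, the inhibitor p15, with 228.4 ± 47.5 for D_C against 89.9 ± 40.8 for ND_C (SD, n = 4 each) and a log2 fold change of 1.34 (SE 0.33, adjusted p = 0.0504, edgeR). Its mean was 113.8 ± 41.2 for D_B12, the group with the highest Cdkn1a. The genes most like Cdkn1a over the 16 libraries were the lactate carrier Slc16a1 (r = 0.95), Rad54l2 (r = 0.93) and Dffa (r = 0.93).

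Sox9 encodes the transcription factor that surviving tubule cells switch on as they divide. Its counts were 188.8, 93.4, 184.6 and 109.4 for ND_C, 113.5, 153.9, 95.8 and 84.1 for ND_B12, 111.8, 59.2, 104.9 and 72.2 for D_C, and 170.5, 70.7, 51.5 and 79.0 for D_B12. All groups overlapped, and the smallest unadjusted p over the 7 comparisons was 0.0534. Of 12 other transcription factors of tubule development and repair, none rose and 1 fell in D_C against ND_C and in the average effect of diabetes, the nephron patterning gene Lhx1, by 0.23 on the log2 scale in the latter (SE 0.05, adjusted p = 0.0266, edgeR). Lhx1 had 1876 ± 148 for D_C and 2446 ± 126 for ND_C (SD, n = 4 each).

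Krt8, the keratin of simple epithelia, had the smallest ratio of highest to lowest library. Its counts were 4864, 4410, 4770 and 4616 for ND_C, 4760, 5639, 4741 and 5430 for ND_B12, 4838, 6199, 6296 and 5809 for D_C, and 4829, 4968, 5405 and 4327 for D_B12. D_C 2, D_C 3 and D_C 4 were the highest of the 16, and D_C 1 lay within ND_C. The log2 fold change was 0.31 (SE 0.09, adjusted p = 0.0795, edgeR) in D_C against ND_C and -0.24 (SE 0.09, adjusted p = 0.241) in D_B12 against D_C, and the interaction was -0.39 (SE 0.13, adjusted p = 0.149). Krt8 rose in D_C against ND_C with DESeq2 (adjusted p = 0.0204), when D_C 1 was left out, by 0.38 (adjusted p = 0.0154, edgeR), and by 0.38 (SE 0.08, adjusted p = 0.0112) without D_C 1 and ND_B12 4. In that last fit D_B12 against D_C reached -0.32 (adjusted p = 0.0696) and the interaction -0.43 (adjusted p = 0.0928).

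Krt18, the filament partner of Krt8, had 1147, 449.3, 942.4 and 1001 counts in ND_C, 500.0, 1180, 656.6 and 1215 for ND_B12, 1875, 1836, 1271 and 1543 for D_C, and 1484, 1042, 788.9 and 448.2 for D_B12. Every D_C library was above every ND_C library, a separation that 1 of 10 markers and 9.44% of all genes showed. The log2 fold change was 0.88 (SE 0.35, adjusted p = 0.185, edgeR) in D_C against ND_C and -0.79 (SE 0.35, adjusted p = 0.331) in D_B12 against D_C, and with the label date as a covariate these became 1.56 (SE 0.43, adjusted p = 0.170) and 0.035 (SE 0.47, adjusted p = 0.983). Unlike Krt8, Krt18 was high in D_C 1.

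Urothelial markers varied with Krt18 from library to library. The 6 examined, Upk1a, Upk1b, Upk2, Upk3a, Krt5 and Krt14, summed to between 162.0 and 2108 for ND_C, 290.4 and 1388 for ND_B12, 614.5 and 2487 for D_C, and 76.5 and 1684 for D_B12, and in D_B12 4 there were 3 at 0. None of the 6 passed in any comparison, and the smallest p was that of Upk1a, the uroplakin of the bladder and pelvis surface, for the average effect of B12, at -0.76 (SE 0.47, adjusted p = 0.981, edgeR). The 4 libraries with the lowest sums, ND_C 2, ND_B12 1, D_B12 3 and D_B12 4, had Krt18 counts of 449.3, 500.0, 788.9 and 448.2. Across the 16 libraries the log2 sum and Krt18 had r = 0.77, and the genes most like Krt18 were Sgce (r = 0.96), S100a6 (r = 0.95) and the uroplakin-family gene Upk3b (r = 0.94). D_C 2, with a sum of only 614.5, had a Krt18 count of 1836. The part of urothelium in the Krt18 difference was not tested.

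Krt20 encodes a keratin of urothelial and gut surface cells that also appears in injured tubules. Its counts were 29.9, 12.9, 112.1 and 33.6 for ND_C, 24.02, 3.0, 8.7 and 23.2 for ND_B12, 54.2, 40.4, 27.5 and 24.9 for D_C, and 36.1, 78.0, 54.3 and 3.6 for D_B12. The spread within ND_C and within D_B12 covered the levels of every D_C library. It was lower in ND_B12 than in ND_C by -1.65 (SE 0.75, adjusted p = 0.644, edgeR), which did not pass. The log2 urothelial sum and Krt20 had r = 0.50 over the 16 libraries.

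Some of the 10 markers moved together across libraries. Of their 45 pairs, 9 had r above 0.5 on the log2 scale and 1 had r below -0.5, with a median of 0.14. Spp1 was highest with Krt8 (r = 0.72) and with Clu (r = 0.70), Lcn2 with Krt18 (r = 0.65), Krt8 with Krt18 (r = 0.64) and Vcam1 with Sox9 (r = 0.62), and the lowest value was that of Vcam1 with Cdkn1a (r = -0.57). Havcr1 and Krt20 were in none of the pairs above 0.5. These values are descriptions over 16 libraries that share their groups and differ in depth.

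The genes most like the remaining markers were as follows, with r over 16 libraries. For Havcr1 they were Rex2 (0.88), the myelin-linked membrane gene Pllp (0.85) and Gm13233 (0.83). For Lcn2 they were Hid1 (0.91), Septin4 (0.89) and Gm6212 (0.88), and for Spp1 the MAP kinase kinase gene Map2k1 (0.95), the membrane protease gene Tmprss2 (0.93) and Pgrmc1 (0.92). Clu was nearest to Pcdhb6, Tspear and Acnat1, at 0.82 to 0.84. Sox9 was nearest to Arhgap20, the lymphatic growth factor gene Vegfc and Gm57343, at 0.84 to 0.87. Krt8 was nearest to the glutathione transferase gene Gstt3 (0.95), the protein kinase A subunit gene Prkar1a (0.91) and Lmbrd1 (0.90), which exports cobalamin from the lysosome. Krt20 was nearest to Cd1d1 (0.85), Gpnmb (0.83) and Stum (0.82).

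Of 28 further genes of injured and failed-repair tubules, 2 rose and 2 fell in the average effect of diabetes, where 3.02% of all genes passed, with a median log2 fold change of 0.10 against 0.01 over all genes. Cp, the copper oxidase ceruloplasmin, rose by 0.53 (SE 0.10, adjusted p = 0.0168, edgeR) in that effect. In D_C against ND_C Cp rose by 0.64 (SE 0.14, adjusted p = 0.0418, edgeR), from 3294 ± 365 for ND_C to 5138 ± 1086 for D_C (SD, n = 4 each). Il34, a ligand of the macrophage receptor CSF1R, fell in the average effect of diabetes by 1.07 (SE 0.26, adjusted p = 0.037, edgeR). Hbegf, a ligand of the EGF receptor, fell in D_C against ND_C by 0.64 (SE 0.15, adjusted p = 0.0443). Without D_C 1 and ND_B12 4, 3 rose and 2 fell in the average effect, where 10.2% of all genes were called. In that fit 1 fell in D_B12 against D_C, where 0.87% were called. Called members of the list thus moved in both directions.

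Of 19 receptors and ligands of the markers' products, such as the osteopontin receptors Itgav, Itgb3 and Cd44 and the lipocalin receptors Slc22a17 and Lrp2, 18 were tested and none passed in any comparison of all 16 libraries. In the average effect of diabetes 9 of 18 had an unadjusted p below 0.05, where 19.4% of all genes did. In the fit without D_C 1 and ND_B12 4, 2 of 18 rose and 5 fell in that effect, where 10.2% of all genes were called, and the 2 that rose were Itgav and the microglial and macrophage receptor gene Trem2. Those that fell were Itgb7, Itga4, which encodes the integrin alpha 4 that binds VCAM1, Lrp8, Havcr2 and Slc22a17. There 4 of 18 passed in D_C against ND_C and 1 in D_B12 against ND_B12. In all 16 libraries the smallest p was that of Itgb3 in D_B12 against ND_B12, at 0.56 (SE 0.16, adjusted p = 0.0899, edgeR). Of the 10 proximal tubule markers none rose and 2 fell in the average effect of diabetes, Miox, which oxidises inositol, by 0.52 (SE 0.09, adjusted p = 0.0121), and the phosphate carrier Slc34a1 by 0.25 (SE 0.05, adjusted p = 0.0178). Without D_C 1 and ND_B12 4, 3 of 10 fell in that effect, Miox, Slc34a1 and Slc7a13. Of 5 neutrophil markers 2 were tested, and Ly6g was at 0 in 14 of 16 libraries. Neither of the 2 passed, and the smallest p was that of S100a8 for D_B12 against D_C, at -2.88 (SE 1.38, adjusted p = 0.374). The 4 adipocyte markers varied between 23.1 and 11492 in their sum without passing in any comparison, Adipoq was at 0 in 4 libraries, and the smallest p was that of Cfd in D_B12 against ND_B12, at 1.97 (SE 1.71, adjusted p = 0.598).

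Of 28 marker transcripts tested among 66503, none passed in any comparison, and 0% of all transcripts did. At an unadjusted p below 0.05 there were 7 of 28 for D_C against ND_C, where 9.77% of all transcripts were below it, 7 for D_B12 against D_C, where 9.27% were, and 3 in the average effect of diabetes, where 10.2% were. There were 2 for D_B12 against ND_B12 and 3 for the interaction, with 12.1% of all transcripts each, 2 for ND_B12 against ND_C, with 6.93%, and 3 for the average effect of B12, with 4.8%. Krt8, Krt18, Krt20 and Sox9 each had 1 transcript in the counts. The smallest adjusted p was 0.184, that of Vcam1-201 in the average effect of diabetes, at -0.37 on the log2 scale (SE 0.09, edgeR), and without D_C 1 and ND_B12 4, where 0.695% of all transcripts passed in that effect, 1 of the marker transcripts did, Cdkn1a-201.

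In the GENCODE vM39 annotation of GRCm39, the build of the files, Lcn2 lies at chr2:32274645-32278264, Vcam1 at chr3:115903598-115923355, Krt20 at chr11:99319227-99328985 and Krt8 at chr15:101905133-101912917, all on the minus strand. Spp1 lies at chr5:104582165-104589235, Havcr1 at chr11:46625907-46670405, Sox9 at chr11:112673009-112678586, Clu at chr14:66190200-66218999, Krt18 at chr15:101936615-101940462 and Cdkn1a at chr17:29309936-29319701, all on the plus strand. Krt8 and Krt18 are thus near neighbours in opposite orientation. Krt8 has a processed copy in the annotation, Krt8-ps, and how reads shared with it were divided is not stated. Genes on the opposite strand overlap Clu, Vcam1, Cdkn1a, Sox9 and Krt8, and of those in the count table none had more than 617 counts over all libraries.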

How the data were processed

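Reads were mapped by the authors to GRCm39 (STAR, GENCODE vM35), and the deposited tables hold StringTie's estimated counts per gene and per transcript. The submitters' notes also name bcl2fastq 2.20.0, DESeq2 and limma. These expected counts were already whole numbers. All 16 columns were matched to libraries by their label, and groups come from the labels.

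The 25408 genes with at least 100 counts were tested in R 4.3.3 with edgeR 4.0.16 (glmQLFit and glmQLFTest, TMM), 1 model for the 16 libraries with 1 mean for each group, 12 residual degrees of freedom, two-sided, with Benjamini-Hochberg adjustment at 0.05 over all genes, and transcripts likewise. The common biological coefficient of variation was 0.201. With totals of 65271308 to 91771136, spread between libraries limits precision more than counting for all but the lowest markers. P-values measure the spread between libraries. Normalized counts are counts over median-of-ratios size factors, and r is Pearson's on log2 CPM (TMM, prior count 2). Of the 120 library pairs none was a duplicate (r 0.972 to 0.985). The members and lists were chosen with earlier results of these data known. Named genes are the 10 markers, the 3 genes most like each by r, and from each list up to 4 genes with the smallest adjusted p below 0.05 in any comparison, otherwise the 1 with the smallest p. Naming Dino, Trp53, Sesn2 and marker list members beyond these was decided after their values were seen. Of 232 repeated symbols the most abundant entry was read.

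Alternatives were DESeq2 1.42.0, upper-quartile normalization, no filter beyond 1 count, filterByExpr, a term for the label date, a block for the replicate number, compared groups alone, each library left out, and D_C 1 and ND_B12 4 left out. Scripts were tested on simulated data. Tables were handled with Python 3.11.15 and pandas 2.3.3, and plots drawn with matplotlib 3.10.9. Promoter windows are RefSeq's, tabulated on GRCm38.p6. The tabulated group means of the study served only to compare labels, and its histology, blood and urine measures are not analysed here. The values of 1 gene of a list are not reported here.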

Additional observations from a re-analysis of the deposited data

Results flagged for a closer look

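In 40 groups of 4 libraries (10 markers in 4 groups), 3 held a library whose gap to its nearest neighbour was too large a share of the group's range by Dixon's test at 95%, where chance gives about 1 in 20. Within D_B12, Havcr1 in D_B12 2 stood below the others at a normalized count of 70.7. Within D_B12, Lcn2 in D_B12 1 stood above the others at 345.1. Within D_C, Vcam1 in D_C 1 stood above the others at 863.1, and D_C 1 is 1 of the 2 libraries that matched the other side of the diabetes comparison. No marker's interaction passed the adjusted test.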

How the results depend on the processing

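No marker was called in D_C against ND_C, where 1.66% of all genes were. There were 2 with DESeq2 (6.31% of all genes) and 3 without D_C 1 and ND_B12 4 (8.57%). When 1 library was left out there were 0 to 2 (0% to 6.2%). In D_B12 against ND_B12 the count of 0 (0.823% of all genes) became 1 with DESeq2 (4.51%) and 1 without D_C 1 and ND_B12 4 (2.8%). With 1 library left out it was 0 to 1 (0% to 1.75%). For the average effect of diabetes the count of 1 (3.02%) became 3 with DESeq2 (7.21%) and 3 without D_C 1 and ND_B12 4 (10.2%). It was 0 without a filter beyond 1 count (1.05%) and 0 with the label date as a covariate (0%). With 1 library left out it was 0 to 4 (0.933% to 6.79%). Of the marker transcripts 1 was called for this effect without D_C 1 and ND_B12 4. The counts for both simple comparisons of B12, its average effect and the interaction were 0 under every alternative run. Of all genes, DESeq2 called 2.68% for D_B12 against D_C and 3.63% for the interaction. With the label date as a covariate these shares were 0.803% and 2.96%.

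Over all genes, 767 were called for the average effect of diabetes, 1832 with DESeq2 and 2531 without D_C 1 and ND_B12 4. Leaving out 1 library gave between 235 (ND_B12 3) and 1700 (D_C 1) for that effect. A date term in the model left 0 genes called for it. The same term gave 204 called genes for D_B12 against D_C and 753 for the interaction, where the main fit called 0. With the label date as a covariate the log2 fold change of Krt18 in D_B12 against D_C became 0.035, that of Upk1a for the average effect of B12 0.22 and that of Clu for the average effect of diabetes -0.29. With 1 library left out, Clu ran from -0.024 to 0.12 and Cfd in D_B12 against ND_B12 from -0.085 to 3.16. Calls of list genes in the average effect of diabetes were also lost under some of 23 alternatives. These were 17 for C1qa, 15 for Il34, 10 for Lhx1, 9 for Egfl7, and 1 each for Cp, Miox and Slc34a1. The cause was not tested.

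The replicate numbers did not pair the libraries, since the 24 same-number pairs had correlations of their deviations from -0.183 to 0.168, with a median of -0.01. With the replicate number as a block, 1 marker was called in the average effect of diabetes and none elsewhere, the counts without the block. Among the markers, the SE in D_C against ND_C was largest for Krt20 (0.70), Havcr1 (0.45), Lcn2 (0.44) and Cdkn1a (0.44). The labels, dates and groups limit every comparison.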
